A study of Mus musculus with 20 samples.

Results

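The 2 Nox4-/- lines of a mouse embryoid body (EB) time course, Nox4-/- #5-8 and Nox4-/- #5-23, were compared with each other by RNA sequencing. All libraries of the pair were taken by line and day, 5 days in each line, which gave 10 of the 20 libraries of the series. The other 10 libraries came from 2 wild type lines, WT#1-4 and WT#20D-17, and are used here only as levels and for 1 measure of distance. Both Nox4-/- lines were induced pluripotent stem cells (iPSCs) made from embryonic fibroblasts of Nox4-/- mice with retroviral vectors for Oct4, Sox2, Klf4 and c-Myc, and both were kept on feeder fibroblasts with LIF before EBs were formed in hanging drops and then plated on gelatin. Each line was grown from a picked colony and so is 1 clone, and each was sampled once on days 0, 3, 5, 7 and 14. The titles give day 14 for the last sample while the protocol text of the labels lists day 10, and day 14 is used here. Nothing in the labels says that the days of a line were separate cultures. Every p-value below therefore compares these 2 clones, or for the distance these 2 clones and the 2 wild type lines. It measures only the spread between their libraries or days. Because both lines carry the same Nox4 deletion and received the same factors, differences between them are differences between 2 lines of 1 genotype.

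Nox4 is an NADPH oxidase that produces hydrogen peroxide, and EBs are aggregates of pluripotent cells that form derivatives of the 3 germ layers once LIF is withdrawn. Independent iPSC clones of 1 genotype are known to differ from each other: retroviral insertions sit at different places in each clone, fibroblast founders differ, chromosomes can be gained or lost in culture, and marks of DNA methylation that hold imprinted genes and developmental genes silent can be erased or kept to a different extent. A comparison of such clones shows which genes vary with the line while the targeted gene is the same.

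Total counts per library were between 20294968 and 27708023 over the 10 libraries, so that 3 counts, taken here as the floor of detection, were between 0.108 and 0.148 CPM, that is per library total, before TMM scaling. Levels below are CPM scaled with TMM factors, and intervals and floors do not go beyond counting error. Nox4 (ENSMUSG00000030562, chromosome 7 of GRCm38) had at most 2 counts in any library of either line. Of the naive pluripotency markers, Nanog was 0.334 to 1.01 CPM in #5-8 and 0.1502 to 0.712 CPM in #5-23, and Zfp42 had 0 counts in all 10 libraries. The wild type line WT#1-4 was alike, with 0.0384 to 0.882 CPM of Nanog and 0 counts of Zfp42. In WT#20D-17 Nanog was 8.22 to 379 CPM and Zfp42 6.49 to 41.3 CPM. Of the 24 genes on the naive list 6 had at most 3 counts in all 10 libraries, and their summed level was between 604 and 669 CPM in #5-8 and between 587 and 705 CPM in #5-23. Of the 22 endoderm genes on the list used here, 12 had at most 3 counts in all 10 libraries. Reads of Pou5f1, Sox2, Klf4 and Myc were present in all 10 libraries. In bulk samples, fewer cells of a type and less RNA per cell cannot be told apart. The day 14 pair stood apart from the others. On that day the difference between the lines correlated across genes with the length of the longest transcript (Spearman's rho of 0.502, against 0.0629 to 0.215 on the other days) and with its GC content (rho of -0.312, against 0.0190 to 0.186), over 15251 genes, which are not independent replicates. The part of length and GC content in the day 14 values was not tested, and results are given with and without that day where it matters.

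The 2 lines differed at many genes. Of 15265 genes with a mean count of at least 10, 1459 (9.56%) passed a false discovery rate (FDR) of 0.01 in edgeR's quasi-likelihood test with day as a covariate. Of these, 898 (5.88% of the genes tested) were higher and 561 (3.68%) were lower in #5-23 than in #5-8. The sign of the difference was the same on all 5 days for 98.97% of the called genes, against 34.3% of all genes tested. The libraries of the lines did not overlap for 1357 of all genes tested (8.89%) and for 714 of those called. Changes of at least 2-fold were fitted for 897 of the called genes, and the median log2 fold change over all genes tested was 0.01. The number called depended on how the days entered the test. Without day as a covariate 326 genes passed, 325 of which were among the 1459. Leaving out a day gave 907 genes without day 0, 523 without day 3, 509 without day 5, 532 without day 7 and 2326 without day 14. A core of 433 genes passed in the full fit and in each of those 5 fits, in the same direction. The plot of all genes shows the 2 features described next, a band of chromosome 5 genes at a modest positive fold change and a set of genes from other chromosomes at very large fold changes in both directions.

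**Figure D1:**
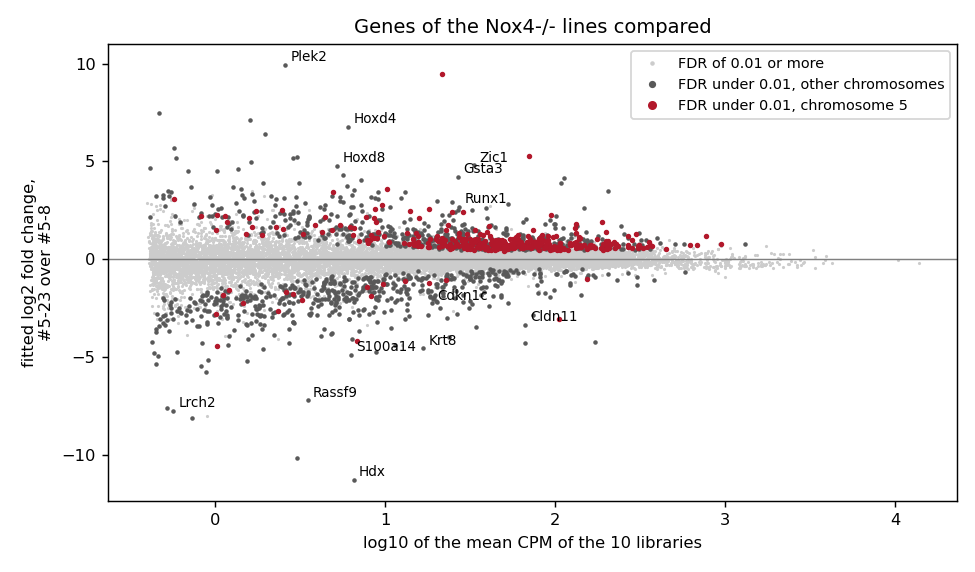
Each point is a gene, with the log10 of its mean CPM over the 10 libraries on the x axis and the fitted log2 fold change of Nox4-/- #5-23 over #5-8 on the y axis. Grey points did not pass an FDR of 0.01, dark points did, and red points are those on chromosome 5, of which 343 lie above 0 and 18 below.

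Chromosome 5 was higher as a whole in #5-23. Of its 1031 genes tested, 361 (35.0%) passed the test, 343 of them (33.3%) higher and 18 (1.75%) lower in #5-23. Outside chromosome 5, 1098 of 14234 genes (7.71%) passed, and they were split nearly evenly, with 555 higher (3.90%) and 543 lower (3.81%). The median fitted log2 fold change was 0.56 on chromosome 5 (quartiles 0.35 and 0.83) and -0.02 elsewhere (quartiles -0.26 and 0.23). A value of 0.58 on this scale is the log2 of 3 over 2, and copy number itself was not measured. Of the chromosome 5 genes, 88.7% had a fitted fold change above 0, against 48.2% elsewhere, and 60.2% were higher in #5-23 on all 5 days, against 15.9% elsewhere.

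The shift was present on every day. The median difference of log2(CPM + 1) over chromosome 5 genes was 0.49 on day 0, 0.53 on day 3, 0.53 on day 5, 0.49 on day 7 and 0.43 on day 14. Over the 19 other chromosomes with at least 20 genes tested, the same median lay between -0.15 and 0.06 on days 0 to 7, and between -0.19 and 0.16 with day 14 included. Measured per library against the mean of all 10, chromosome 5 stood at -0.241 ± 0.0494 (SD, n = 5) in #5-8 and at 0.238 ± 0.0509 in #5-23, with no overlap. The exact two-sided permutation test gave p = 0.00794 for this difference of 0.479, the smallest p that 5 against 5 libraries allow, and an adjusted p of 0.0529 over 20 chromosomes, so the threshold of 0.05 was not reached. Chromosomes 12 and 17 reached the same p with differences of 0.0286 and -0.0661. Leaving out day 14 gave 0.496 for chromosome 5, and 582 of its genes passed the FDR in place of 361.

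**Figure D2:**
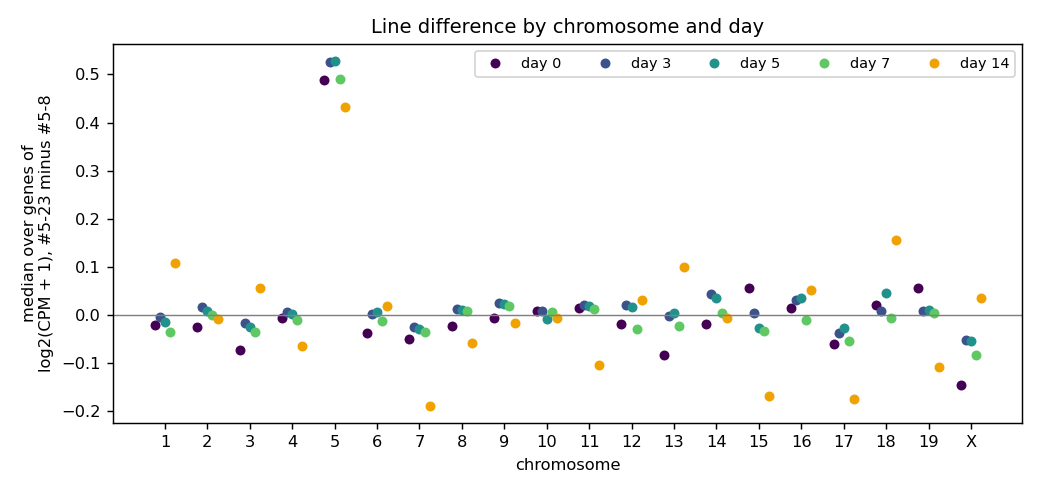
Points give, for each chromosome on the x axis and each of the 5 days by colour, the median over its genes of log2(CPM + 1) in Nox4-/- #5-23 minus #5-8. Chromosome 5 sits between 0.43 and 0.53 on all days, and the day 14 points of several other chromosomes lie apart from their other 4 days.

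Along the chromosome the shift was even. In 17 windows of neighbouring tested genes, 60 genes in each but the last, from 3236431 to 151651242 of GRCm38, the median fitted log2 fold change ranged from 0.45 to 0.77. Between 76.7% and 93.3% of the genes in a window were above 0, and each window held between 15 and 26 genes called higher. No window had a median near 0, so no stretch of chromosome 5 was left out at this resolution. The size of the shift was alike for well and poorly expressed genes. The median was 0.49 for the 290 genes with mean counts from 10 to 100, 0.59 for the 329 genes from 100 to 1000 and 0.57 for the 412 genes above 1000. The share called, 8.62%, 39.8% and 49.8% in the same order, was larger for genes with more counts, against 8.61%, 10.15% and 4.55% outside chromosome 5, so that among the genes with the fewest counts the share was that of the other chromosomes.

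**Figure D3:**
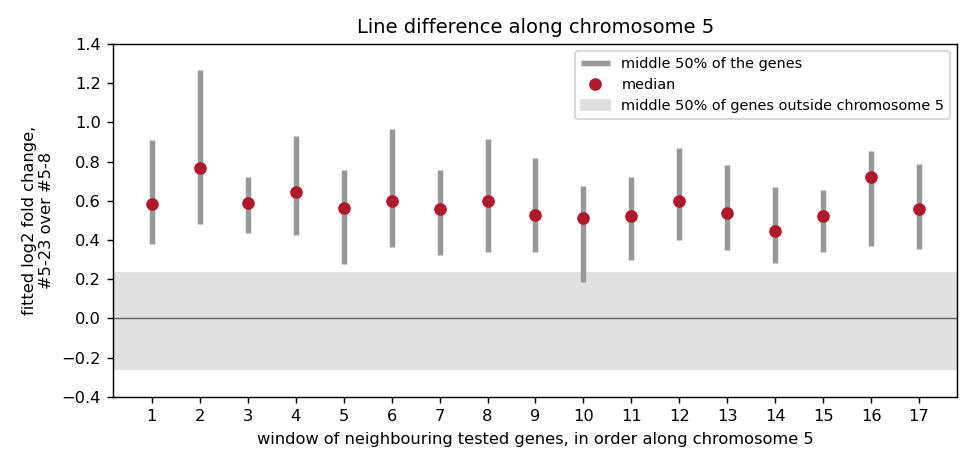
The x axis numbers 17 windows of neighbouring tested genes in their order along chromosome 5, and the y axis is the fitted log2 fold change of Nox4-/- #5-23 over #5-8. Red points are medians, bars span the middle 50% of the genes in a window, and the grey band spans the middle 50% of genes outside chromosome 5, from -0.26 to 0.23.

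Set beside the wild type lines, it was #5-23 whose chromosome 5 genes stood apart. The median of log2(CPM + 1) over chromosome 5 genes was between -0.03 and 0.14 above WT#1-4 in #5-8, and between 0.484 and 0.615 above it in #5-23. Against WT#20D-17 the medians were between 0.05 and 0.11 in #5-8 and between 0.50 and 0.58 in #5-23. These comparisons share their wild type libraries. Genes outside chromosome 5 had medians between -0.02 and 0.16 in the same comparisons.

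Single genes of chromosome 5 followed this shift or left it by far. Pdgfa, the A chain of platelet-derived growth factor, was 25.3, 19.6, 16.6, 19.4 and 33.4 CPM on the 5 days in #5-8 and 49.7, 43.8, 41.8, 44.8 and 46.1 CPM in #5-23. It was higher in #5-23 on every day, without overlap (log2 fold change 1.03 ± 0.14 (SE), FDR 0.00191), though it passed in only 2 of the 5 fits that left out a day. Kit, the receptor of stem cell factor, was chosen after its values were seen. Its level was 4.71, 3.51, 2.33, 2.82 and 1.06 CPM in #5-8 and 19.03, 13.2, 12.8, 11.5 and 6.26 CPM in #5-23 (log2 fold change 2.18 ± 0.17, FDR 0.000192). It was lowest on day 14 in both lines and higher in #5-23 on each day. Far above the shift were Kpna7 (log2 fold change 3.59), an importin alpha of oocytes and early embryos, Tmem156 (3.45) and Oas2 (2.78), an interferon-induced sensor of double-stranded RNA. The furthest below were Sowahb (-4.43), Grk3 (-4.17), a kinase that desensitizes G protein-coupled receptors, the long noncoding RNA Miat (-3.06) and the cell adhesion molecule Sdk1 (-2.81). These 4 were therefore lower in #5-23 on a chromosome that was otherwise higher. Grk3 passed in only 1 of the 5 fits that left out a day. Its level was 0.495 to 0.884 CPM in WT#1-4 and 16.9 to 28.8 CPM in WT#20D-17.

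A small set of genes was on in 1 line and off in the other. With off defined as at most 3 counts in all 5 libraries and on as at least 10 counts in all 5, 14 of 29198 genes with any count (0.0479%) met the rule, 5 of them on in #5-23 and 9 on in #5-8. The 5 on in #5-23 were Plek2, Sorcs1, Hoxd3os1 and the predicted genes Gm28230 and Gm33167. Those on in #5-8 were Hdx, Rassf9, Ehhadh, Slc22a3, Zfp286, Grrp1, Cd302, Hspa1a and Gm3854. Only Gm33167 lies on chromosome 5. Of the 9 genes that #5-23 lacked, 7 had more than 3 counts in all 10 wild type libraries, and the same held for 2 of the 5 that #5-8 lacked.

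Plek2 and Hdx were the clearest cases, since 1 line had no read of them at all. Plek2 (ENSMUSG00000021118, chr12:78888691-78906964 on the minus strand of GRCm38), a pleckstrin-family protein that binds phosphoinositides and acts on actin, had 0 counts in every #5-8 library and 5.82, 4.25, 4.07, 5.71 and 5.89 CPM on days 0, 3, 5, 7 and 14 in #5-23. Its mean level in #5-23 was at least 40.1-fold higher, with 3 counts per library as the floor (FDR 0.00124). Hdx (ENSMUSG00000034551, chrX:111569931-111697079 on the minus strand), an X-linked gene for a divergent homeobox protein, was the mirror image. It was 15.8, 15.4, 16.8, 12.2 and 4.88 CPM in #5-8 and had 0 counts in all 5 libraries of #5-23, so that #5-8 was at least 106-fold higher (FDR 0.000609). The wild type lines had 4.899 to 13.5 CPM (WT#1-4) and 6.11 to 16.9 CPM (WT#20D-17) of Hdx, and 2.31 to 5.22 and 0.441 to 1.75 CPM of Plek2. Both wild type lines thus had reads of both genes, and each Nox4-/- line lacked 1 of them.

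The 250 bases before the starts that RefSeq gives for Plek2, Hdx, Hoxd8 and Hoxd4 are shown because these genes were silent or nearly silent in 1 clone and expressed in the other, and CG dinucleotides, the sites of DNA methylation, are set in capitals. The sequences are RefSeq's for GRCm38.p6, written 5′ to 3′ along the gene. The RefSeq start of Plek2 matched no GENCODE transcript start, and the last bases of its window lie inside the GENCODE span of the gene given above. The RefSeq start of Hoxd4 matched a GENCODE transcript start, but its whole window lies inside the GENCODE span of that gene (chr2:74711929-74729160).
Plek2 (chr12:78906939-78907188, minus strand): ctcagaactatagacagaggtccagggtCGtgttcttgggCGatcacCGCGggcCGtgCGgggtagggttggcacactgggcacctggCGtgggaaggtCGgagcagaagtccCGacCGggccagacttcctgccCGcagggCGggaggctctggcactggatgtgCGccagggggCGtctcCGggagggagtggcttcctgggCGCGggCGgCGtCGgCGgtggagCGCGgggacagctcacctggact
Hdx (chrX:111697080-111697329, minus strand): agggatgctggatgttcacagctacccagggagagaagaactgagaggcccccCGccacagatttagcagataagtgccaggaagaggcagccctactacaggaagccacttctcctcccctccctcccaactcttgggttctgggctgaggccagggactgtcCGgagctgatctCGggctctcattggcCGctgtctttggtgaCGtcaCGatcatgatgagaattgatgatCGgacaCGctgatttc
Hoxd8 (chr2:74704365-74704614, plus strand): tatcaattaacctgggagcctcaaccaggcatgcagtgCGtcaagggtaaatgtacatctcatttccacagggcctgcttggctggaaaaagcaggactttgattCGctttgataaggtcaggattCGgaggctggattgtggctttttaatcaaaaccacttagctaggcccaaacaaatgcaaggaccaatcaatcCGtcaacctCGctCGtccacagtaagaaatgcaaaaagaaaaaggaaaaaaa
Hoxd4 (chr2:74721728-74721977, plus strand): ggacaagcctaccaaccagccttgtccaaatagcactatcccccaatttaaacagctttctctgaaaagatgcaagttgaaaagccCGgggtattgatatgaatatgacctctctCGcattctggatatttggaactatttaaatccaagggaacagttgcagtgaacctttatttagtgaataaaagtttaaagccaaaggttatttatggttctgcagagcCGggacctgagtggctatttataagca
The Plek2 window holds 23 CG dinucleotides, and 13.3% of the 32851 promoter windows of this length in the table hold as many or more. Hdx holds 8, a number reached by 43% of windows. Hoxd8 holds 6 (50.4%) and Hoxd4 3 (70.97%). The median over all windows was 6. The 4 genes therefore span CG-rich and CG-poor windows. Methylation was not measured in these samples.

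Rassf9, a Ras-association domain protein, was 6.88, 9.48, 9.01, 6.69 and 2.62 CPM in #5-8 and 0, 0.0924, 0.03804, 0.0453 and 0.0375 CPM in #5-23, a ratio of pooled counts of 174 (95% interval from 74.3 to 538). Hdx and Rassf9 were both at their lowest in #5-8 on day 14. Ehhadh, the bifunctional enzyme of peroxisomal fatty acid oxidation, was 0.402, 0.931, 0.864, 1.099 and 1.197 CPM in #5-8 and 0, 0.0462, 0, 0.0453 and 0.0375 CPM in #5-23 (ratio 36.3 (95% interval from 12.1 to 179)). Slc22a3, an organic cation transporter next to the imprinted gene Igf2r on chromosome 17, was 1.57, 0.973, 0.526, 0.717 and 0.4602 CPM in #5-8 and 0, 0.0462, 0.03804, 0 and 0.0375 CPM in #5-23 (ratio 35.2 (95% interval from 11.7 to 174)). All 3 genes were detected in every library of #5-8 and near or at 0 in #5-23. The zinc finger gene Zfp286 had a ratio of 54.4 (95% interval from 14.7 to 455) and Cd302, a C-type lectin receptor, one of 13.4 (95% interval from 6.805 to 29.99). Grrp1 had too few counts to be tested. Hspa1a, an inducible heat shock protein, had a ratio of 49.2 (95% interval from 18.9 to 182), but it has a near-identical copy, Hspa1b, which was 4.44 to 7.78 CPM in #5-8 and 3.804 to 7.47 CPM in #5-23 (FDR 0.806), and reads that fit both copies were divided between them by RSEM. Sorcs1, a sorting receptor of the sortilin family, was 0.121, 0.0846, 0.0751, 0.0478 and 0.04602 CPM in #5-8 and 0.526, 1.02, 3.04, 5.49 and 5.85 CPM in #5-23 (ratio 41.7 (95% interval from 21.8 to 91.9)). It was on in both wild type lines.

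**Figure D4:**
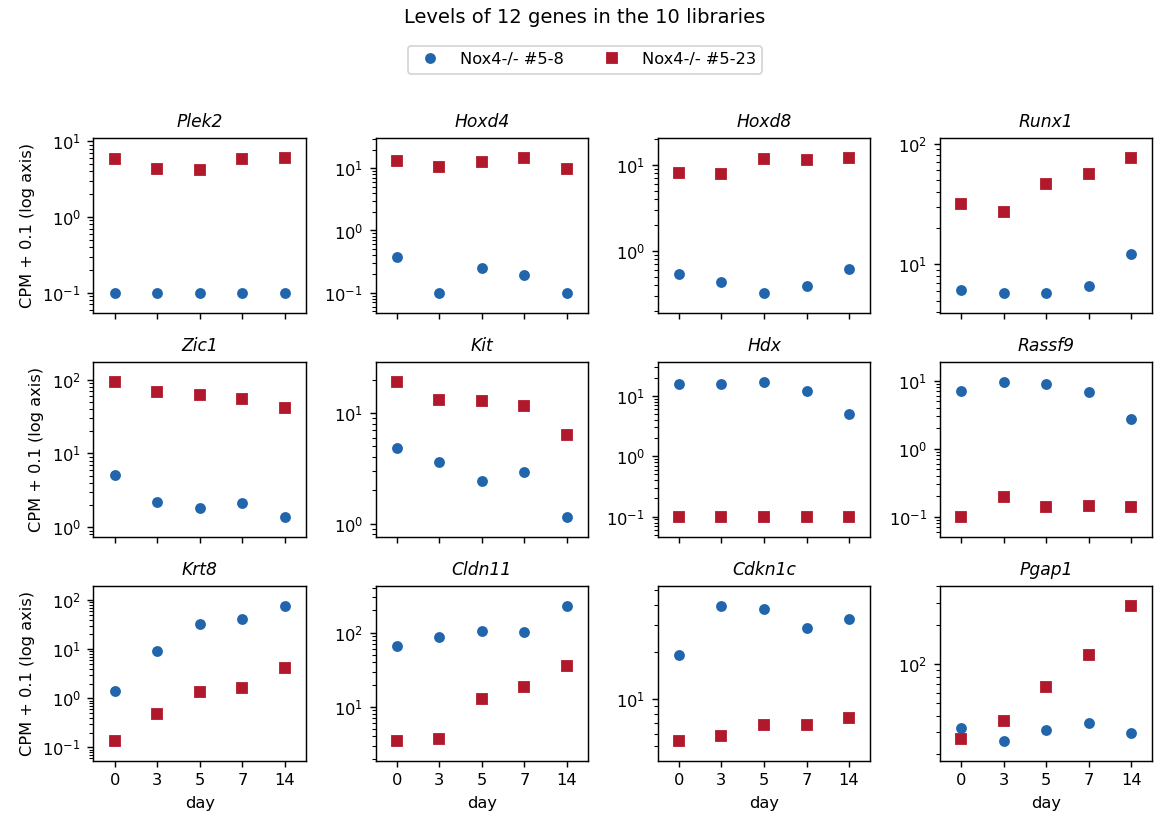
Each panel is a gene, with the day on the x axis and CPM plus 0.1 on a log y axis. Blue circles are Nox4-/- #5-8 and red squares #5-23, 1 library per point, and points at 0.1 had 0 counts. Plek2 to Kit were higher in #5-23 and Hdx to Cdkn1c lower on each day, while the Pgap1 points of the lines lie close on day 0 and apart on day 14.

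Hox genes, which encode homeobox factors that give cells their position along the body axis, were higher in #5-23 or gave no call. Of 39 genes on the list, 22 were tested, and all 22 had a fitted fold change above 0. The test called 10 higher (45.5%, against the 5.88% of all genes) and 0 lower, with a median log2 fold change of 1.11 beside 0.01 over all genes. Of the 10, 7 passed in each of the fits that left out a day. The largest fold changes were in the Hoxd cluster on chromosome 2, which was set apart after the values were seen. Of its 9 genes 4 were tested, and these were called: Hoxd4 (log2 fold change 6.78 ± 0.48, FDR 0.000136), Hoxd8 (4.78 ± 0.27, FDR 6.48e-05), Hoxd9 (3.92 ± 0.31, FDR 0.00020002) and Hoxd13 (2.32 ± 0.34, FDR 0.00262). Hoxd4 and Hoxd8 had 13 and 42 counts summed over the libraries of #5-8, against 1465 and 1244 in #5-23. They met the filter on the mean count through #5-23, so the number of calls supports nothing about the cluster. The same holds for these genes within the counts of the whole list. Hoxd4 was 0.282, 0, 0.1502, 0.0955 and 0 CPM in #5-8 and 12.9, 10.5, 12.3, 14.4 and 9.49 CPM in #5-23. Hoxd8 was 0.443, 0.339, 0.225, 0.287 and 0.506 CPM in #5-8 and 7.96, 7.63, 11.6, 11.2 and 11.8 CPM in #5-23. Hoxd9 ranged over 0.143 to 0.598 CPM in #5-8 and over 4.54 to 6.75 CPM in #5-23. These 3 genes were more than 10-fold apart in the means of the lines, without overlap, from day 0 on. Hoxd4 overlaps Hoxd3, Gm28230 and the antisense RNA Hoxd3os1 in the annotation. Gm28230 and Hoxd3os1 are among the on/off genes, so these calls share a locus. The kit kept the strand, but whether the counting used it is not given in the sources used here.

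On the Hoxa cluster the differences were smaller and as steady. Hoxa9 was 17.99, 13.9, 12.4, 12.9 and 12.2 CPM in #5-8 and 40.8, 28.8, 24.5, 25.9 and 29.4 CPM in #5-23 (log2 fold change 1.10 ± 0.10, FDR 0.000469). Hoxa10 was 9.58, 6.22, 7.02, 8.07 and 10.1 CPM in #5-8 and 20.5, 14.4, 16.5, 18.7 and 19.01 CPM in #5-23 (1.13 ± 0.12, FDR 0.000717). Neither gene overlapped between the lines. Hoxa3 (1.92), Hoxa6 (2.22), Hoxa7 (1.32) and Hoxc8 (1.29) were also called. In the annotation Hoxa3 overlaps Hoxa4, Hoxa5 and Hoxa6 on the same strand, and Hoxc8 overlaps Hoxc5. Reads may be shared among these genes, so their calls are not all separate. Hoxb genes were hardly expressed in either line, with 1 of 10 tested. In the wild type lines Hoxa9 was 4.36 to 10.3 CPM (WT#1-4) and 0.0813 to 3.0002 CPM (WT#20D-17), and Hoxd8 0.643 to 2.34 and 0.244 to 2.16 CPM. The Hoxd8 levels of #5-23 lay above all wild type libraries and those of #5-8 inside or below their range.

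Other patterning factors of the nervous system were also called higher in #5-23. Zic1, a zinc finger factor of the neural tube, was 5.03, 2.07, 1.73, 2.05 and 1.29 CPM in #5-8 and 92.6, 68.5, 61.9, 55.1 and 40.6 CPM in #5-23 (log2 fold change 4.80 ± 0.17, FDR 7.74e-06). Its divergent neighbour Zic4 was 0.2301 to 0.644 CPM in #5-8 and 3.28 to 4.505 CPM in #5-23 (FDR 0.000451). The annotated spans of Zic4 and Zic1 overlap on opposite strands, and Zic1 reached 2467 counts in a library. Whether the counting used the strand is not given, so the Zic4 call may include reads of Zic1. Pax3, a paired-box factor of the dorsal neural tube, was 0.483 to 1.53 CPM in #5-8 and 1.802 to 5.32 CPM in #5-23 (FDR 0.001003). Each of these factors was higher in #5-23 on every day, without overlap.

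The neural list held calls in both directions. Of 21 genes, 11 were tested and 4 called (36.4%, against 9.56% of all genes), with 2 higher (Zic1, Pax3), 2 lower (Tubb3, Sox11) and a median log2 fold change of 0.20. Tubb3, the neuronal tubulin, was 9.58, 20.3, 23.1, 16.96 and 42.7 CPM in #5-8 and 4.02, 1.895, 2.55, 1.54 and 11.7 CPM in #5-23 (log2 fold change -2.59 ± 0.35, FDR 0.00184). Gm20388 overlaps Tubb3 on the same strand and reached 4878 counts in a library. Reads may be shared between them, and the part of this in the Tubb3 call was not tested. Sox11 differed by -0.63 and passed in 2 of the 5 fits without a day. Th, tyrosine hydroxylase of catecholamine synthesis, was chosen after its values were seen. It was 11.3, 52.2, 96.1, 75.4 and 72.9 CPM in #5-8 and 0.901, 2.91, 5.402, 6.303 and 18.5 CPM in #5-23 (-3.47 ± 0.33, FDR 0.000453). Slc17a6, the vesicular glutamate transporter of neurons, was 4.63, 2.45, 1.201, 0.478 and 0.09205 CPM in #5-8 and 0.0751, 0, 0.0761, 0.0453 and 0 CPM in #5-23 (FDR 0.00107). Its level in #5-8 was lower on each later day, and without day 0 its FDR was just above the threshold, at 0.0101. Among 6 neural crest genes edgeR's test called 0, with 2 at an unadjusted p under 0.05, and DESeq2 called 0.

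Several keratins, among them Krt8 and Krt19, were called lower in #5-23. Keratins build the intermediate filaments of epithelia, Krt8 with Krt18 in simple epithelia and Krt14 in basal layers. Krt8 (ENSMUSG00000049382) was 1.33, 9.27, 31.95, 41.8 and 75.5 CPM in #5-8 and 0.0375, 0.3698, 1.26, 1.54 and 4.12 CPM in #5-23 (log2 fold change -4.54 ± 0.16, FDR 7.74e-06). It was higher on each later day in both lines, with a gap of more than 10-fold on every day, although the ranges over all days overlap and the FDR was 0.0384 without day as a covariate. Its partner Krt18 had too few counts to be tested, at 0, 0.254, 1.43, 1.15 and 0.598 CPM in #5-8 and 0.0751, 0, 0.03804, 0 and 0.112 CPM in #5-23. Krt19 was 9.13, 97.5, 291, 311 and 881 CPM in #5-8 and 5.29, 37.7, 140.5, 179 and 362 CPM in #5-23 (-1.07 ± 0.12, FDR 0.000952). Krt14 was 0.282, 1.86, 5.18, 3.34 and 4.19 CPM in #5-8 and 0, 0, 0, 0.0907 and 0.337 CPM in #5-23 (ratio of pooled counts 33.3 (95% interval from 18.4 to 67.3)), and Krt17 had a ratio of 73.3 (95% interval from 24.7 to 358). Krt19 was thus abundant in both lines and Krt14 and Krt17 scarce.

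Of 55 keratin genes in the table, a family chosen after the values were seen, 14 were tested, 7 were called lower, against 3.68% of all genes, 0 were called higher, 2 were fitted above 0, and the median log2 fold change was -1.10. Because of that choice the count supports nothing about the family. On the epithelial list, 10 of 15 genes were tested, 3 were lower (Krt8, Krt19, Marveld3) and 1 higher, the tight junction protein Ocln at 0.82. The share called was 40%, against 9.56% of all genes. Krt8 and Krt19 passed in all fits that left out a day. S100a14, a calcium-binding protein of epithelia, was 0.282, 2.67, 8.26, 13.1 and 36.2 CPM in #5-8 and 0, 0.0462, 0.152, 0.544 and 1.57 CPM in #5-23 (-4.88 ± 0.29, FDR 6.48e-05). Cldn11, a tight junction claudin, was 66.95, 86.8, 105, 102 and 229 CPM in #5-8 and 3.42, 3.61, 12.7, 18.4 and 35.1 CPM in #5-23 (-3.36 ± 0.33, FDR 0.000531), and every #5-8 library was above every #5-23 library. Kallikreins, a cluster of secreted proteases on chromosome 7, had 11 of 37 genes tested and 5 called lower, beside the same 3.68%, among them Klk8 (-3.30) and Klk11 (-2.70). Cldn11 and the kallikreins were also chosen after their values were seen. The summed level of the 15 epithelial genes was between 59.7 and 1160.2 CPM in #5-8 and between 47.5 and 524.2 CPM in #5-23. The summed level of 20 fibroblast genes, which feeder cells would carry, was between 562.5 and 1112.7 CPM in #5-8 and between 669.7 and 1002.1 CPM in #5-23, while over the 17 of them tested the median log2 fold change was -1.01, with 2 fitted above 0. The median of the 10 epithelial genes tested was -0.63, with 3 fitted above 0.

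Imprinted genes, which are expressed from 1 parental copy, were called lower or not at all in #5-23. Of 47 genes, 38 were tested, 6 were lower (15.8%, against 3.68% of all genes), 0 were higher, and the median log2 fold change was -0.38. Leaving out a day gave between 2 and 15 calls, with 15 when day 14 was left out. Cdkn1c, a growth-restraining inhibitor of cyclin-dependent kinases, was 19.1, 39.3, 37.6, 28.2 and 32.6 CPM in #5-8 and 5.33, 5.73, 6.77, 6.76 and 7.498 CPM in #5-23 (log2 fold change -2.25 ± 0.16, FDR 0.000136), without overlap. Usp29 was 22.5, 32.5, 33.8, 37.5 and 36.04 CPM in #5-8 and 5.71, 10.4, 8.98, 11.9 and 16.3 CPM in #5-23 (-1.66 ± 0.14, FDR 0.000322). These 2 genes passed in all 5 fits without a day. Ndn (-1.38), Phlda2 (-2.77), Airn (-2.22) and H19 (-2.84) passed in 2 of the 5. Airn overlaps Igf2r on the opposite strand, and Igf2r reached 3073 counts in a library. Whether the counting used the strand is not given, so the Airn call may include reads of Igf2r. The noncoding RNA H19 was 4.18, 20.99, 18.96, 17.9 and 0.828 CPM in #5-8 and 1.73, 2.08, 1.598, 0.771 and 0.487 CPM in #5-23, and its lines overlapped in range. H19, Phlda2 and Cdkn1c lie within 1 megabase at the end of chromosome 7, as does Th.

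Igf2, the imprinted growth factor beside H19, was low in both lines and gave no call between them. It was 1.77, 2.58, 2.74, 3.49 and 1.47 CPM in #5-8 and 2.18, 1.34, 3.35, 3.85 and 1.35 CPM in #5-23 (log2 fold change -0.05 ± 0.25, FDR 0.911), against 3.57 to 54.3 CPM in WT#1-4 and 14.3 to 4676 CPM in WT#20D-17. Of 21 genes of the IGF axis 14 were tested, and 4 were called (28.6%, against 9.56% of all genes), Igfbp2, Igfbp4 and Igf2bp1 lower and Irs1 higher in #5-23. Igf2bp1, an RNA-binding protein of fetal tissues that binds Igf2 transcripts, was 37.7, 40.5, 35.5, 29.9 and 10.4 CPM in #5-8 and 1.58, 8.69, 8.83, 3.72 and 1.4997 CPM in #5-23 (FDR 0.00112). Igfbp2, a secreted IGF-binding protein, was 1.29, 47.2, 48.5, 42.3 and 34.4 CPM in #5-8 and 0.751, 10.4, 12.8, 11.2 and 8.74 CPM in #5-23 (FDR 0.000451). Igfbp2 was lowest on day 0 in both lines, and Igf2bp1 did not overlap between them.

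The reprogramming factors were expressed in both lines, and the gene counts cannot separate the vector copy from the endogenous gene. Sox2 was 156, 101, 81.8, 87.9 and 96.7 CPM in #5-8 and 204, 173, 156, 190.1 and 141 CPM in #5-23 (log2 fold change 0.75 ± 0.12, FDR 0.00432), though it passed in only 2 of the 5 fits without a day. Pou5f1, which encodes Oct4, was 3106, 2916, 2983, 2922 and 1858 CPM in #5-8 and 4438, 3506, 3444, 3783 and 3782 CPM in #5-23 (0.48 ± 0.14, FDR 0.0511). Klf4 differed by 0.28 ± 0.14 (FDR 0.213) and Myc by 0.17 ± 0.14 (FDR 0.4498). Sox2 was the single factor past the threshold, and Pou5f1, Klf4 and Myc were at their lowest in #5-8 on day 14. The naive pluripotency list had 13 of 24 genes tested and 2 lower in #5-23 (15.4%, against 3.68% of all genes called lower), Tdgf1 and Gdf3. Over the 13 genes the median log2 fold change was -0.07, with 6 fitted above 0, so the 2 calls do not stand for the list. Of the 2, 1 passed in all 5 fits without a day. Tdgf1, the Nodal co-receptor Cripto, was 2.66, 23.8, 40.7, 20.6 and 5.57 CPM in #5-8 and 0.263, 3.37, 5.48, 4.72 and 1.27 CPM in #5-23 (log2 fold change -2.60 ± 0.20, FDR 0.000193). It peaked on day 5 in both lines. Gdf3, a TGF-beta family ligand of pluripotent cells, was 20.8, 26.6, 16.9, 16.7 and 15.004 CPM in #5-8 and 8.33, 10.96, 9.397, 4.76 and 2.74 CPM in #5-23 (FDR 0.00263).

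The lists of 2 developmental signalling pathways were counted side by side, and the difference between them was not tested. Of 25 genes of Nodal, Activin and BMP signalling 18 were tested, with 4 lower in #5-23 (Tdgf1, Gdf3, Inhbb, Id2; 3.68% of all genes were called lower) and 0 higher, and a median log2 fold change of -0.31. Tdgf1 and Gdf3 are also the calls on the naive pluripotency list. Inhbb, the beta B subunit of activin and inhibin, was 5.67, 17.9, 22.9, 18.9 and 27.8 CPM in #5-8 and 2.93, 2.17, 3.69, 3.401 and 8.098 CPM in #5-23 (-2.17 ± 0.29, FDR 0.00168). Of 26 genes of Wnt signalling 16 were tested, with 4 higher, against 5.88% of all genes, and 0 lower, and a median of 0.31. Lef1, a transcription factor through which beta-catenin acts, was 0.241, 0.169, 0.188, 0.191 and 0.368 CPM in #5-8 and 5.63, 4.02, 3.27, 3.17 and 1.91 CPM in #5-23 (3.89 ± 0.38, FDR 0.000519), without overlap. The Wnt receptor Fzd5 was 46.4, 40.03, 34.1, 38.4 and 23.98 CPM in #5-8 and 110.4, 84.4, 87.9, 95.99 and 62.1 CPM in #5-23 (1.28 ± 0.09, FDR 0.000164). The other 2 receptors called, Fzd10 (2.58) and Fzd1 (1.48), lie on chromosome 5, of whose genes 33.3% were called higher.

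Mesodermal lists gave calls in both directions. Of 25 cardiac genes 11 were tested and 6 called (54.5%, against 9.56% of all genes), with Myl7, Myl4, Tnni3, Actn2 and Nppb lower and Tbx20 higher. None of the 6 passed in all 5 fits without a day, and the list gave between 0 and 5 calls in those fits. Myocd, a coactivator of smooth muscle genes, was 0.121, 0.0846, 0.526, 1.05 and 1.84 CPM in #5-8 and 0.638, 1.202, 3.35, 5.85 and 19.1 CPM in #5-23 (log2 fold change 2.90 ± 0.27, FDR 0.000451), while Tagln, a gene of contractile smooth muscle, was lower at -1.88. Runx1, the transcription factor that starts definitive blood formation, was 6.04, 5.71, 5.71, 6.45 and 12.1 CPM in #5-8 and 31.3, 27.2, 46.1, 56.2 and 75.8 CPM in #5-23 (2.68 ± 0.16, FDR 6.5e-05), without overlap, and in WT#1-4 it was 18.4 to 51.2 CPM. It was the single call among 5 blood genes tested (20%, beside the same 9.56%). Of 8 endothelial genes, Tek (0.89) and Eng (1.02) were called higher, the only 2 of the 8 with a fitted fold change above 0, and the median log2 fold change was -0.56, so that the 2 calls do not stand for the list. They were 25% of the genes tested, against 5.88% of all genes called higher, and neither passed in all 5 fits without a day. Of the 8, 7 had an unadjusted p under 0.05. Col2a1, the collagen of cartilage, was 1.13, 12.3, 43.4, 22.1 and 6.12 CPM in #5-8 and 0.1502, 0.462, 1.33, 0.635 and 0.262 CPM in #5-23 (-4.71 ± 0.27, FDR 6.48e-05), with a peak on day 5 in both lines.

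Endodermal and basement membrane genes also split. Of 22 endoderm genes 7 were tested and 3 called (42.9%, against 9.56% of all genes). Dab2, an endocytic adaptor of primitive endoderm, was higher (1.25), while the apolipoprotein Apoe (-1.82) and the homeobox gene Rhox5 (-2.69) were lower. Of the 14 basement membrane genes of parietal endoderm tested, Lamb1 (1.01) and Thbd (1.21) were higher and Col4a1 (-1.44) and Snai1 (-2.55) lower. These 4 calls were 28.6% of the genes tested, beside the same 9.56%. Among the marker genes for which the study designed primers, 12 of 22 were tested, and Zic1 and Pax3 were higher and Snai1 lower (25% called, against 9.56% of all genes). The primitive streak list had 2 of 8 tested genes lower (25%, against 3.68% of all genes called lower), Evx1 and Snai1.

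The antioxidant list was called about as often as other genes. Of its 34 genes 31 were tested and 2 called (6.45%, against 9.56% of all genes), with 1 higher, Nfe2l2, the transcription factor of the antioxidant response (0.52, FDR 0.00509), and 1 lower, the secreted glutathione peroxidase Gpx3 (-1.73, FDR 0.00347). Both passed in 1 of the 5 fits that left out a day. Larger fold changes were fitted for 2 alpha class glutathione transferases, which conjugate electrophiles to glutathione. Gsta3 was 4.31, 3.005, 1.46, 1.82 and 3.27 CPM in #5-8 and 40.995, 56.3, 65.9, 48.3 and 41.3 CPM in #5-23 (log2 fold change 4.22 ± 0.31, FDR 0.000165), without overlap. Gsta1 was 0 to 0.368 CPM in #5-8 and 1.43 to 9.32 CPM in #5-23 (FDR 0.000335), and it has close copies with which reads may be shared. Gsta4 was 90.7 to 409.6 CPM in #5-8 and 78.2 to 376 CPM in #5-23 (FDR 0.1597). Of the NADPH oxidases and their partners, 6 of 17 were tested, while 9 of the 17 had at most 3 counts in all 10 libraries. The GTPase Rac2 was lower (-2.28), which is 16.7% of the genes tested, against 3.68% of all genes called lower. It did not pass in all 5 fits that left out a day.

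Antigen presentation genes were called higher or not at all in #5-23. Tap1, a subunit of the peptide transporter, was 12.6, 9.39, 11.2, 14.9 and 17.7 CPM in #5-8 and 42.8, 48.3, 43.4, 50.2 and 31.98 CPM in #5-23 (log2 fold change 1.74 ± 0.20, FDR 0.000974). Its partner Tap2 (1.29) and the heavy chain H2-K1 (0.80) were called too, 3 of 11 tested genes (27.3%, against 5.88% of all genes called higher), with a median of 0.80. Only Tap1 passed in all 5 fits without a day. The next 5 lists had between 5% and 13.3% of their tested genes called, around the 9.56% of all genes, and the calls are named without reading anything from the lists. The interferon list had 1 call of 12, Oas2, which lies on chromosome 5. Of 21 glycolysis and hypoxia genes, the glucose transporters Slc2a1 (-1.06) and Slc2a3 (-1.86) were lower. Among 15 p53 targets, Mdm2 (0.57) and Plk2 (0.83) were higher. Of 20 immediate early genes Fosl1 was higher (2.46), and of 21 cholesterol synthesis genes Mvk, on chromosome 5, was higher (0.65) and Dhcr7 lower (-0.63). Fosl1 passed in none of the 5 fits without a day, and Oas2, Mvk and Dhcr7 did not pass in all 5. Of the 2 glycolysis and hypoxia genes called 1 passed in all 5, as did 1 of the 2 p53 targets called. The fibroblast list had 2 of 17 lower (11.8%, Thy1 and S100a4), the germ cell list 1 of 6 (16.7%, Tdrd9) and the trophoblast list 1 of 5 (20%, Krt7). Of all genes 3.68% were called lower. None of these calls passed in all 5 fits without a day. The other 4 lists gave 0 calls in edgeR's test. Of 20 genes of DNA replication and mitosis 1 was fitted above 0, with a median log2 fold change of -0.26, and 2 passed without day 14. An unadjusted p under 0.05 was found for 8 of them and DESeq2 called 1, while of 5 primed epiblast genes 2 had such a p and DESeq2 called 1. Among 13 DNA methylation enzymes 1 gene had such a p, as did 1 of 7 genes of X inactivation and the Y chromosome, and DESeq2 called 0 on either list.

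The remaining genes with the largest fold changes were mostly scarce. Higher in #5-23 were Ajap1, a protein of adherens junctions, with 0, 0, 0, 0 and 0.09205 CPM in #5-8 and 0.3003, 0.3698, 1.33, 2.09 and 11.8 CPM in #5-23, and Nrg2, a ligand of ErbB receptors, with 0 counts in all of #5-8 and 0.0375, 0.7396, 1.86, 1.04 and 0.975 CPM in #5-23. Tmem182 had a ratio of pooled counts of 47.1 (95% interval from 15.8 to 231) and the anoctamin Ano4 one of 22.4 (95% interval from 10.6 to 56.5). Lower in #5-23 was the X-linked gene Lrch2, with 2.21, 1.82, 0.826, 0.717 and 0.09205 CPM in #5-8 and 0 counts in all of #5-23. Nrg2 and Lrch2 each passed in 1 of the 5 fits that left out a day. Of the 12 largest rises and the 12 largest falls, 10 each passed in all 5 of those fits, and all 24 passed without day 14. Without day as a covariate 8 of the 12 rises and 7 of the 12 falls passed.

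Whether the gap between the lines changed over the days was tested with a term for line by day number. A single gene of 15265 (0.00655%) passed an FDR of 0.01, and 4194 (27.5%) had an unadjusted p under 0.05. That gene was Pgap1, an enzyme that remodels GPI anchors. It was 31.9, 25.5, 30.6, 34.8 and 29.3 CPM in #5-8 and 26.2, 36.4, 66.2, 118 and 282 CPM in #5-23, so the lines were close on day 0 and far apart on day 14. The log2 difference grew by 0.25 ± 0.02 (SE) per day (FDR 0.00947). The next smallest p-values were those of Sned1, Grk3, Pcdhgc4 and F5, with FDRs of 0.0365, 0.0368, 0.0368 and 0.0368. Sned1, an extracellular matrix protein, was 422, 279, 199.6, 158 and 36.7 CPM in #5-8 and 429.6, 343, 369.6, 349.8 and 248 CPM in #5-23. Coagulation factor F5 was 39.8, 113, 129, 82.5 and 11.6 CPM in #5-8 and 10.1, 34.9, 75.3, 49.7 and 52.9 CPM in #5-23, highest in #5-8 up to day 7 and in #5-23 on day 14. Pcdhgc4 shares exons with other protocadherin genes. With day 0 left out 1173 genes passed, with day 14 left out 3, with day 5 left out 2 and with day 3 or day 7 left out 0, so the number called by this term depended on which days were in the fit. Day 14 lies furthest out on the scale of this term, and its pair of libraries stood apart by transcript length and GC content. The part of these in the values of the term was not tested.

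In size, the distance between the 2 Nox4-/- lines was smaller than that between the 2 wild type lines. Over 16516 genes, the root mean square difference of log2(CPM + 1) between #5-23 and #5-8 was 0.497, 0.530, 0.559, 0.534 and 0.777 on the 5 days. Between WT#20D-17 and WT#1-4 it was 1.47, 1.42, 1.51, 1.49 and 1.59. The means were 0.579 ± 0.113 (SD, n = 5) and 1.49 ± 0.0617, without overlap, and the exact two-sided permutation test gave p = 0.00794, the smallest p that 5 against 5 allow. Paired by day, the exact sign-flip test gave p = 0.0625, the smallest that 5 pairs allow. The 5 values on either side are days of the same 2 lines, so neither p-value speaks for other lines of these genotypes. The edgeR fit called 4073 of 16848 genes (24.2%) between the wild type lines, against 9.56% between the Nox4-/- lines.

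**Figure D5:**
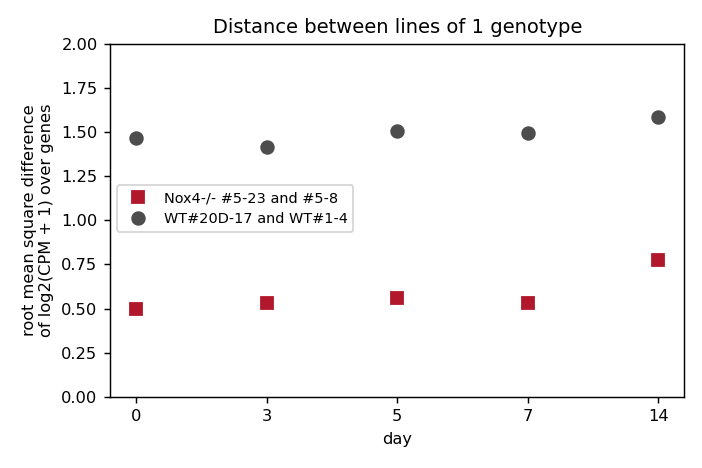
The y axis is the root mean square difference of log2(CPM + 1) over 16516 genes between 2 lines of 1 genotype, and the x axis is the day. Red squares, the Nox4-/- pair, lie between 0.497 and 0.777, with the highest on day 14, and dark circles, the wild type pair, between 1.42 and 1.59.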

How the data were processed

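Stranded mRNA libraries were prepared and sequenced by the authors, who mapped the reads to GRCm38 (mm10) with STAR 2.6.0c and estimated counts with RSEM 1.3.1, as listed in the submitters' processing notes. The deposited values are expected counts per gene, without normalization, in 1 table of 20 libraries. Reads shared by several genes were apportioned by RSEM, which left decimals in 9.92% of the values. They were rounded to whole numbers here. Symbols and positions came from GENCODE M21, in which 55480 of 55573 identifiers were found, and promoters from RefSeq.

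Counts were scaled with TMM factors over all 20 libraries and given as CPM. The 10 Nox4-/- libraries, grouped by line from their titles, were fitted with edgeR 4.0.16 (R 4.3.3) by the quasi-likelihood test with day as a covariate, over 15265 genes with a mean count of at least 10, and genes with a Benjamini-Hochberg FDR under 0.01 were called. Fold changes are #5-23 over #5-8, with SE from the F statistic. A second fit held the interaction of line and day number. Chromosomes and distances were compared with exact permutation tests on log2(CPM + 1). The day pairs the libraries: deviations from the line means of same-day libraries correlated at 0.807, 0.606, 0.284, 0.584 and 0.589 on days 0, 3, 5, 7 and 14. Ratios of pooled counts have exact binomial 95% intervals. The step was tested on simulated counts.

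Genes were named by rule: the 12 largest rises and 12 largest falls past the threshold with the same sign on all days and no predicted-gene symbol, the on/off genes, the 5 smallest p-values of the interaction, Nox4, Igf2, the reprogramming factors, up to 6 called genes per list, and no others. An item that met the rule is not reported here. Added after the values were seen were the chromosome 5 genes furthest above and below its shift, families by symbol (keratins, kallikreins, Hox clusters, Gsta and Zic genes, Cldn11), and Kit, Th, Pdgfa, Nanog, Zfp42, Krt18, Hspa1b and Gsta4. The comparison, its members and its 33 gene lists were chosen with earlier results of these data known. Alternatives covered the day block, the test (exact test, DESeq2 1.42.0, limma-voom with limma 3.58.1), normalization, filter, threshold, the libraries in the fit, chromosome 5 and each day left out. Each library held 20294968 to 27708023 counts. With 1 library per line and day, precision rests on the spread between days.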

Additional observations from a re-analysis of the deposited data

Results flagged for a closer look

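A total of 9 results stood apart by simple rules, 8 of them because 1 day lay far from the other 4 (Dixon's test at the 95% level, applied to 54 sets of 5 values, where chance alone flags about 1 in 20). All 8 were day 14. The median log2 difference of #5-23 minus #5-8 on that day was 0.109 for chromosome 1 (-0.0353 to -0.00568 on the other days), -0.0657 for chromosome 4 (-0.0114 to 0.00527), -0.189 for chromosome 7 (-0.0503 to -0.0265), -0.105 for chromosome 11 (0.0117 to 0.0196) and -0.176 for chromosome 17 (-0.0613 to -0.0274). Chromosome 5 was not among them. The root mean square difference of the lines was 0.777 on day 14 against 0.497 to 0.559 before. Hdx and Rassf9 had smaller gaps on day 14, with log2 differences of -2.55 (-4.16 to -3.72 on the other days) and -1.80 (-3.27 to -2.88). The other result was Pgap1, whose difference between the lines changed over the days, by 0.25 log2 units per day in the interaction fit (FDR 0.00947 from edgeR's quasi-likelihood test).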

How the results depend on the processing

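The number of genes called between the lines depended on the replicate block, the pairing of libraries by day. Without it 326 genes passed, 188 higher and 138 lower, against 1459, 898 and 561 with it. Leaving out a day gave between 509 and 2326 genes, between 280 and 1495 higher and between 224 and 831 lower, with 907 without day 0, 523 without day 3, 509 without day 5, 532 without day 7 and 2326 without day 14. The exact test without the day gave 854 (505 higher, 349 lower), DESeq2 with the day 2496 (1442 higher, 1054 lower) and all 20 libraries in 1 fit 659 (395 higher, 264 lower). A threshold of 0.05 in place of 0.01 gave 2868 (1731 higher, 1137 lower) and one of 0.001 gave 294 (170 higher, 124 lower). With no filter on low counts 2218 genes passed, 916 of them lower, and 320 were lower among genes with a mean count of at least 100. A fit without chromosome 5 gave 491 higher of 988, so the share called higher was 49.7% in place of 61.5%, by construction of the alternative. Limma-voom, other scalings and edgeR's own filter stayed within 1.5 times of the numbers given. The term for line by day gave 1 gene in the fit reported, 0 with the rank of the day, with day 0 against later days, with upper quartile normalization and with all 20 libraries, 18 without a filter, 12 at an FDR of 0.05, 655 with DESeq2, and between 0 and 1173 with a day left out. The cause of these differences was not tested. The chromosome 5 difference lay between 0.454 and 0.564 over all alternatives, with adjusted p between 0.0794 and 0.381 (0.312 with the replicate block, where the sign-flip test of 5 pairs cannot go lower than 0.0625 unadjusted). The distance between the Nox4-/- lines minus that between the wild type lines was -0.915, with p = 0.0625 in the exact sign-flip test paired by day, and between -0.942 and -0.901 with a day left out. Of 121 genes past the threshold that were named by rule or added later, none reversed under any alternative, 115 passed without day 14, 64 passed in all 5 fits that left out a day and 49 passed without the block. With 1 library per line and day, a difference between clones cannot be told from a difference between cultures, and at about 0.1 CPM per 3 counts an absent gene is one not detectable at this depth.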
